A study of Mus musculus with 8 samples.

Results

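The genes described here are 10 proteins that hold microtubules at the centrosome or at the nuclear envelope: *Cep170*, *Pcm1*, *Pcnt*, *Akap9*, *Akap6*, *Cdk5rap2*, *Syne1*, *Syne2*, *Sun1* and *Sun2*. They were chosen by gene symbol with earlier results of these arrays in view, so their difference between the groups is given as a description and carries no test. Of the 10, 9 had a row with their symbol among the 19505 genes measured, and *Syne2* was not analysed here. A gene with more than 1 row is represented by its brightest row. RNA was measured on 8 arrays of mouse *RhoA* flox/flox myotubes, made from hindlimb myoblasts that were sorted by the Pax7-nGFP reporter of satellite cells. Myotubes at day 3 of differentiation were given an adenovirus and, by the methods, taken 48 h later. The 4 Ad-Cre-mCherry arrays (Adeno CRE m-cherry in the labels) come from myotubes given Cre recombinase with the fluorescent protein mCherry, and the 4 Ad-mCherry arrays (Adeno m-cherry in the labels) from myotubes of the same floxed genotype given mCherry alone. Only 1 group carried Cre, so the presence of Cre and the loss of *RhoA* cannot be told apart. The labels number the arrays of each group 1 to 4, the methods of the study speak of fewer independent cultures, and what a number refers to is stated nowhere, so p-values measure only the spread between these arrays, which may be technical.

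In dividing cells microtubules grow mainly from the centrosome, a pair of centrioles in a cloud of pericentriolar material. When mouse myoblasts differentiate, much of this material moves to the outer face of the nuclear envelope, and microtubules then grow from the nuclei of the myotube. There the long outer membrane protein nesprin-1 holds the scaffold proteins, and nesprins are in turn fixed by SUN proteins of the inner membrane, which span the gap between the membranes and link the nucleus to the cytoskeleton.

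Values are deposited log2 signals, and a difference of 1 is a 2-fold change on that scale. Some are higher than a scanner reading can be on a log2 scale, and whether anything was done to them after RMA summarisation is unknown, so folds hold for the deposited scale. *Rhoa*, the floxed gene, read 9.99, 10.87, 10.87 and 10.23 on Ad-Cre-mCherry replicates 1 to 4, against 11.16, 11.39, 11.08 and 11.39 on the Ad-mCherry replicates. The groups did not overlap, and the gene was lower in the arrays labelled with Cre. The label names the tissue as adult muscle stem cells, whereas markers of differentiated muscle were bright, with a summed linear signal of 1802183 to 3240758 in Ad-Cre-mCherry and 2343102 to 3325058 in Ad-mCherry myotubes over 14 genes. *Pax7*, which defines satellite cells, was dim at 3.70 to 4.03 in Ad-Cre-mCherry and 3.45 to 3.84 in Ad-mCherry. Not every marker of satellite cells and myoblasts was dim. *Itga7* had means of 13.9 in Ad-Cre-mCherry and 14.3 in Ad-mCherry, and *Myf5* of 8.28 and 9.35, whereas *Chrdl2* was dim at 3.48 and 3.21. The summed linear signal of the 7 markers was 14074 to 19176 in Ad-Cre-mCherry and 16649 to 27164 in Ad-mCherry. In a culture measured in bulk, fewer cells of a type and less RNA per cell cannot be told apart.

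Among the 9 measured anchors, 8 had a lower mean in Ad-Cre-mCherry than in Ad-mCherry myotubes, and *Sun2* had a higher one, where 50.1% of all genes were lower. The differences were largest for *Syne1*, at -1.46 on the log2 scale, and *Cep170*, at -1.38, which were 2.75-fold and 2.60-fold lower. These were also the 2 genes whose 4 values per group did not overlap, and over all genes 3.75% did not overlap, 1.93% with Ad-Cre-mCherry lower. The same 2 passed the thresholds of the study, a fold change of at least 1.2 with an unadjusted p under 0.05, which 6.42% of all genes passed, 3.50% lower and 2.92% higher. Since the members were chosen with this contrast known, nothing is read from these counts. The study listed *Cep170* as lower both on these arrays and in sham-operated plantaris muscle with *RhoA* deleted in its fibres. The difference given here is from the myotube arrays the study picked from, so it is no independent evidence. The muscle arrays were not analysed here.

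The median difference over the 9 genes was -0.56, beside 0 over all genes. It differed between the replicate numbers, at -1.63 in pair 1, -0.41 in pair 2, -0.09 in pair 3 and -0.34 in pair 4, where a pair is the Ad-Cre-mCherry and the Ad-mCherry array of 1 number. Over all genes the 4 medians were -0.02, 0, 0 and 0. In every pair *Cep170*, *Pcm1*, *Akap9*, *Akap6* and *Syne1* were lower in Ad-Cre-mCherry, as were 11.1% of all genes, and no member was higher in every pair, where 9.88% of all genes were.

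With limma's moderated test and adjustment over all genes, 0 members and 0% of genes passed an adjusted p of 0.05, whereas 2 members and 1252 genes had an unadjusted p under 0.05. With the replicate number as a block, 5 members passed the thresholds of the study, *Cep170*, *Pcm1*, *Akap6* and *Syne1* lower and *Sun2* higher, against 14.7% of all genes, 8.20% lower and 6.54% higher. In that paired fit *Cep170* was the 1 member that passed after adjustment, where 0.323% of genes did. Its adjusted p by limma's moderated test was 0.0495, close to the threshold, and that of *Syne1* was 0.0693. The partner gene *Dst* and the muscle markers *Myog* and *Myh3*, described below, had a lower adjusted p in the same fit, at 0.0396. The members and lists were chosen with earlier results of these arrays known. These p-values and counts are therefore a description, and no test of the members is read from them.

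**Figure D1:**
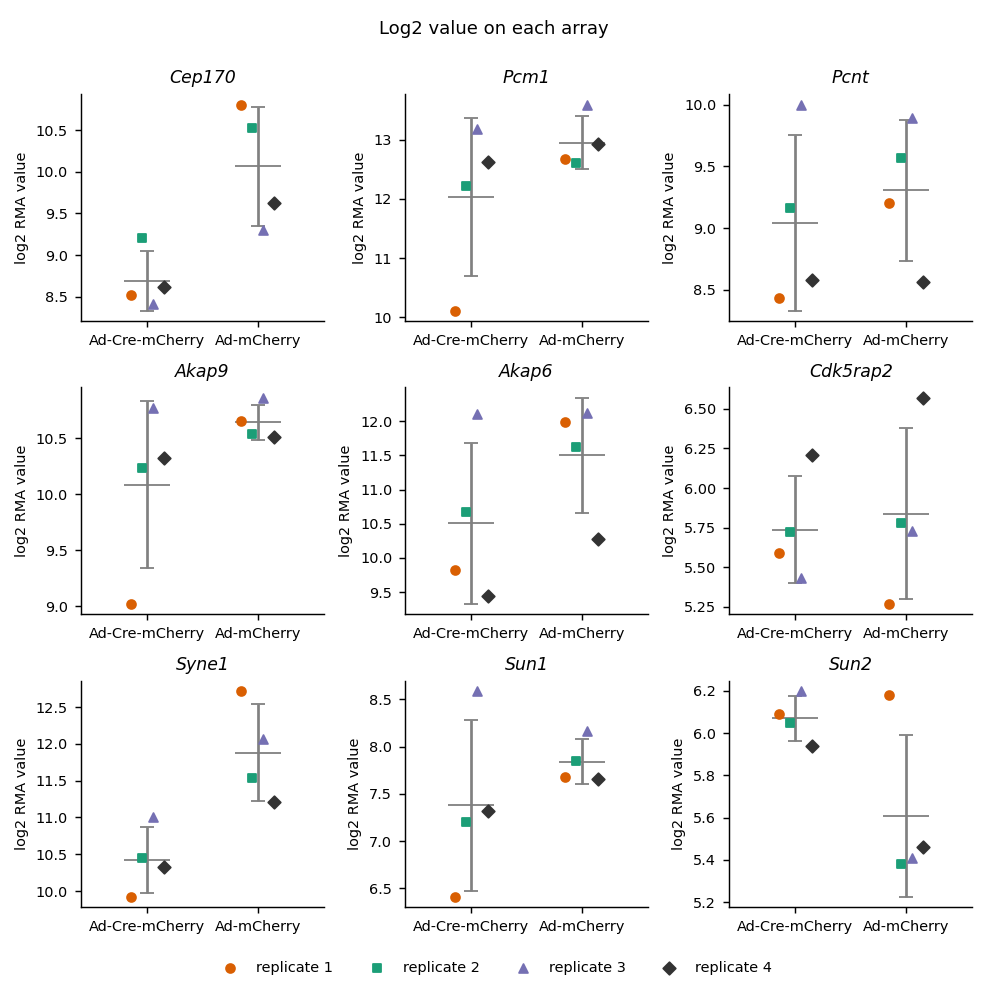
Deposited log2 signal of the 9 measured anchor genes on each array, with Ad-Cre-mCherry left of Ad-mCherry in every panel, symbols for the replicate number, and bars for the mean ± SD (n = 4). *Cep170* and *Syne1* are the panels in which the groups do not overlap, and *Sun2* is the panel whose Ad-Cre-mCherry mean is higher.

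*Cep170* encodes a centrosomal protein of the subdistal appendages, the projections of the older centriole to which microtubules are fixed. It lies at chr1:176729072-176813979 of GRCm38.p6. Its signal was 8.52, 9.21, 8.41 and 8.61 on Ad-Cre-mCherry replicates 1 to 4, against 10.81, 10.53, 9.30 and 9.63 on the Ad-mCherry replicates. Every Ad-Cre-mCherry value was lower, with a gap of 0.09 between the highest of these and the lowest Ad-mCherry value, and the 2 highest values of all were Ad-mCherry replicates 1 and 2. The means were 8.69 ± 0.36 in Ad-Cre-mCherry and 10.07 ± 0.72 in Ad-mCherry (SD, n = 4 each), and the difference was -1.38 (SE 0.35, and 0.24 with the replicate block).

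Within pairs the difference of *Cep170* was -2.29, -1.32, -0.89 and -1.02 for replicates 1 to 4, so pair 1 had the largest and pair 3 the smallest. When each array or pair of arrays was left out, the difference lay between -1.64 and -1.08 and stayed past the thresholds of the study in 12 of 12 settings.

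The bases before the annotated starts of *Cep170* and *Syne1*, the members with the largest differences, are shown from RefSeq (GRCm38.p6, minus strand for both), up to the base next to the outermost end of the gene. They cover chr1:176813980-176814203, which is 224 bases, and chr10:5550693-5550942, which is 250 bases. The letters in capitals mark CAGCTG, a form of the E-box that myogenic factors can bind.
Cep170: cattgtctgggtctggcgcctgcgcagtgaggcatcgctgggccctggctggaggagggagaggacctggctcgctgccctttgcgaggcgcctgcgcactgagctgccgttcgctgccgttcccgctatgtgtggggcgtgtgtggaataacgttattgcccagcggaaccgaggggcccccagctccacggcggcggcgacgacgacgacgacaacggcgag
Syne1: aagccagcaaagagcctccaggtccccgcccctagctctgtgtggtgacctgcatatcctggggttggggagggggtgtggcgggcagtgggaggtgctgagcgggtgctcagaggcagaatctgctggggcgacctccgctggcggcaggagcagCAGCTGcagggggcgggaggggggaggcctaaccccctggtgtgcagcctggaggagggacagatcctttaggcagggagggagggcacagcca

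The E-box form CAGCTG reads the same on both strands and was searched in the 250 bases before each start listed. It stood in 1 of the 3 windows of *Syne1*, 94 bases before the start, in none of those of the other measured members, and in 13.0% of 32851 windows of all genes. Which of the 3 starts the transcripts on the bright row of *Syne1* use was not determined. The CArG box, to which serum response factor can bind, was searched on both strands and was in no window of a measured member, against 1.47% of all windows. *Pcm1* had no window in the table. A match of letters is a description and does not show binding.

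*Pcm1*, the scaffold of the centriolar satellites, granules that carry proteins to the centrosome, read 10.11, 12.22, 13.17 and 12.62 on Ad-Cre-mCherry replicates 1 to 4, against 12.67, 12.61, 13.59 and 12.92 on the Ad-mCherry replicates. The groups overlapped, and 1 array, Ad-Cre-mCherry replicate 1, stood far below the other 7. The means were 12.03 ± 1.34 in Ad-Cre-mCherry and 12.95 ± 0.45 in Ad-mCherry (SD, n = 4 each), a difference of -0.92 (SE 0.58). The pair differences were -2.56, -0.39, -0.42 and -0.30. Without replicate 1 the difference was -0.37, so its size rests on that pair.

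*Pcnt*, pericentrin, is a scaffold of the pericentriolar material that moves to the nuclear envelope in myotubes. It read 8.43, 9.16, 10 and 8.58 on Ad-Cre-mCherry replicates 1 to 4, against 9.20, 9.57, 9.89 and 8.56 on the Ad-mCherry replicates. The groups overlapped throughout, and the difference of -0.26 (SE 0.39) was smaller than its standard error. Pairs 1 and 2 were lower in Ad-Cre-mCherry, by -0.77 and -0.41, and pairs 3 and 4 were close to 0, at 0.11 and 0.02. Left-out arrays moved the difference between -0.58 and -0.06.

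*Akap9* encodes AKAP450, a large anchor of protein kinase A at the centrosome and Golgi from which microtubules are nucleated. Its signal was 9.02, 10.23, 10.77 and 10.32 on Ad-Cre-mCherry replicates 1 to 4, against 10.65, 10.54, 10.86 and 10.51 on the Ad-mCherry replicates. The Ad-mCherry arrays were tightly grouped, at 10.64 ± 0.16, and the Ad-Cre-mCherry arrays were spread, at 10.09 ± 0.75 (SD, n = 4 each). As for *Pcm1*, Ad-Cre-mCherry replicate 1 was the lowest value. The difference was -0.56 (SE 0.34), with pairs of -1.63, -0.31, -0.09 and -0.19, and -0.20 without replicate 1.

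*Cdk5rap2*, which binds and activates the gamma-tubulin ring complex, read 5.59, 5.72, 5.43 and 6.21 on Ad-Cre-mCherry replicates 1 to 4, against 5.27, 5.78, 5.73 and 6.57 on the Ad-mCherry replicates. The groups overlapped, and replicate 4 was the highest in both. The difference was -0.10 (SE 0.29), with pairs of 0.32, -0.06, -0.30 and -0.36. It has no settled direction, since it was 0.14 without Ad-mCherry replicate 4.

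*Akap6*, also called mAKAP, is an anchor of protein kinase A at the nuclear envelope of muscle cells, where nesprin-1 holds it and where it in turn recruits pericentrin. Its signal was 9.82, 10.67, 12.10 and 9.44 on Ad-Cre-mCherry replicates 1 to 4, against 11.99, 11.62, 12.12 and 10.28 on the Ad-mCherry replicates. The groups overlapped because replicate 3 was high in both and replicate 4 low in both. The means were 10.51 ± 1.18 in Ad-Cre-mCherry and 11.50 ± 0.84 in Ad-mCherry (SD, n = 4 each), a difference of -0.995.

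The standard error of the *Akap6* difference was 0.60, and 0.29 with the replicate block. Pairs 1, 2 and 4 differed by -2.17, -0.95 and -0.84, whereas pair 3 differed by -0.02. The difference was -1.53 without Ad-Cre-mCherry replicate 3 and -0.60 without replicate 1.

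*Syne1* encodes nesprin-1, the outer membrane protein of muscle nuclei to which *Akap6* protein and the scaffold proteins bind, and lies at chr10:5020192-5550692 of GRCm38.p6. It read 9.92, 10.45, 11.00 and 10.32 on Ad-Cre-mCherry replicates 1 to 4, against 12.72, 11.53, 12.06 and 11.21 on the Ad-mCherry replicates. All 4 Ad-Cre-mCherry values were lower, with a gap of 0.21 to the lowest Ad-mCherry value. The means were 10.42 ± 0.45 in Ad-Cre-mCherry and 11.88 ± 0.66 in Ad-mCherry (SD, n = 4 each), and the difference was -1.46 (SE 0.35, and 0.29 with the replicate block).

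Pair 1 of *Syne1* differed by -2.80, and pairs 2 to 4 were near each other at -1.08, -1.06 and -0.89. With arrays left out the difference was -1.68 to -1.01, past the thresholds of the study in 12 of 12 settings. A dimmer second row, of another transcript record of the gene, read 4.34, 4.36, 4.17 and 4.25 in Ad-Cre-mCherry, against 4.20, 4.61, 4.37 and 4.13 in Ad-mCherry. That row differed by -0.05 with overlapping groups, so the lower signal was seen on the bright row of *Syne1* and not on the dim one, and the mean of both gave -0.75.

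The SUN proteins of the inner nuclear membrane bind nesprins from inside. *Sun1* read 6.41, 7.20, 8.59 and 7.32 on Ad-Cre-mCherry replicates 1 to 4, against 7.68, 7.85, 8.17 and 7.66 on the Ad-mCherry replicates. The Ad-Cre-mCherry arrays held both the lowest and the highest value, and the difference was -0.46 (SE 0.40). Pairs 1, 2 and 4 were lower, by -1.27, -0.65 and -0.34, and pair 3 was higher, by 0.42. Without Ad-Cre-mCherry replicate 1 the difference was -0.14.

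*Sun2* was the member whose mean was higher. It read 6.09, 6.05, 6.20 and 5.94 on Ad-Cre-mCherry replicates 1 to 4, against 6.18, 5.38, 5.41 and 5.46 on the Ad-mCherry replicates. Ad-mCherry replicate 1 stood with the Ad-Cre-mCherry arrays and the other 3 below all of them. The means were 6.07 ± 0.11 in Ad-Cre-mCherry and 5.61 ± 0.38 in Ad-mCherry (SD, n = 4 each), a difference of 0.46 (SE 0.21). Pairs 2 to 4 were higher in Ad-Cre-mCherry, by 0.67, 0.79 and 0.48, pair 1 differed by -0.09, and without replicate 1 the difference was 0.65.

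**Figure D2:**
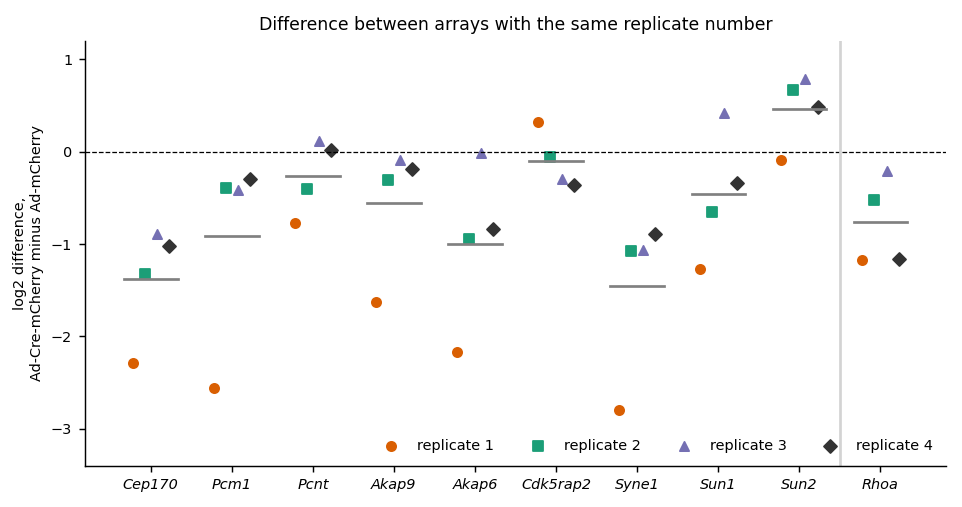
Difference in log2 signal, Ad-Cre-mCherry minus Ad-mCherry, within each replicate number for the 9 anchors and *Rhoa*, with the mean of the 4 pairs. Pair 1 lies farthest below 0 for *Cep170*, *Pcm1*, *Pcnt*, *Akap9*, *Akap6*, *Syne1* and *Sun1*, and 3 of the 4 pairs of *Sun2* lie above 0.

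How the anchors varied with the replicate number was also in view when they were chosen, so these values are a description. By limma's F test on the replicate terms, adjusted over all genes, *Akap6* and *Pcnt* were called, 2 of 9 members, and 12.0% of all genes were. Of the 9754 genes with a mean signal at or above the median, tested alone, 2187 were called. All 9 members were in this set, and the same 2 were called, so nothing particular to the anchors is read from this count. The means of *Akap6* over both groups were 10.91, 11.15, 12.11 and 9.86 for replicates 1 to 4, a range of 2.25. Those of *Pcnt* were 8.82, 9.37, 9.95 and 8.57, a range of 1.38. Both means were highest in replicate 3 and lowest in replicate 4, while within replicate 1 the arrays themselves differed, by -2.17 for *Akap6* and -0.77 for *Pcnt*.

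*Pcm1* had a range of 1.99 and *Sun1* of 1.34, and neither was called. Replicate 3 was the highest array of both groups for *Pcm1*, *Pcnt*, *Akap9*, *Akap6* and *Sun1*. The calls of *Akap6* and *Pcnt* rest on replicates 3 and 4, since 0 members were called without replicate 3 and 0 without replicate 4.

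Genes whose products work beside the anchors were counted in 10 lists, 153 genes in all, chosen with earlier results of these data known. In these lists 94 genes were lower, where 50.1% of all genes were, and their median difference was -0.09, beside 0 over all genes. By the thresholds of the study 7 passed higher and 5 lower, where 2.92% of all genes passed higher and 3.50% lower. With the replicate block the counts were 9 higher and 20 lower, where 6.54% of all genes passed higher and 8.20% lower. Apart from *Bicdl1*, the genes named from them were picked after their values were seen.

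Near *Cep170*, none of 14 subdistal appendage and centriole-end genes passed (median -0.19, 10 lower), and *Cntrl*, centriolin, at -0.52 was the one that passed with the block. Of 6 distal appendage genes *Sclt1* passed, at -0.97. The study also listed *Sclt1*, as lower on these arrays and in sham-operated plantaris muscle with *RhoA* deleted in its fibres. Of 19 genes of the pericentriolar material and gamma-tubulin ring complex, *Tubg1*, gamma-tubulin itself, and *Tubgcp3*, a subunit of the ring, passed higher at 0.83 and 0.69, with a list median of 0.05. Among 15 measured centriole assembly genes *Stil*, *Poc5* and *Cetn2* passed higher, at 0.58, 0.55 and 0.61, with a median of 0.06. That count of higher genes was 0 without replicate 1 and 0 without replicate 2. None of the genes in these last 2 lists passed lower, but with the block *Tubgcp5* (-0.72), *Cep295* (-0.58) and *Cetn3* (-0.51) did. *Tubgcp3* was dim, with means of 4.07 in Ad-Cre-mCherry and 3.38 in Ad-mCherry, as was *Stil*, at 3.91 and 3.33. When only genes at or above the median signal were tested, 1 gene of each of these 2 lists passed higher.

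Of 17 satellite proteins that bind *Pcm1* or its granules, 14 had a lower mean without passing (median -0.16), and *Spag5*, astrin, passed at 0.63. The *Spag5* call was lost in 8 of 12 settings with a replicate number or an array left out. Among these were the settings without replicate 1, without replicate 3 and without replicate 4. With the block *Cep290* (-0.70) and *Bbs4* (-0.53) passed lower. None of 21 nesprin, SUN and nuclear lamina partners passed (median -0.04), and *Banf1* and *Tmem43* did with the block, both higher. Among 19 measured motors and adaptors that move nuclei, *Bicdl1*, an adaptor of dynein and kinesin, read 3.83, 4.13, 4.04 and 3.71 in Ad-Cre-mCherry, against 5.24, 5.05, 4.33 and 4.54 in Ad-mCherry. Its groups did not overlap and it passed at -0.86, as did *Nde1*, a dynein regulator, at -0.82. *Bicdl1* was dim, with means of 3.93 in Ad-Cre-mCherry and 4.79 in Ad-mCherry. When only genes at or above the median signal were tested, 1 gene of this list passed lower. With the block *Kif5b*, the heavy chain of kinesin-1, and *Pafah1b1* also passed lower, and the median of the list was -0.08.

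The other A-kinase anchors, 13 genes, held 1 call, *Akap1* of the outer mitochondrial membrane at 1.24, and had a median of -0.08. The study also listed *Akap1*, as higher on these arrays and in overloaded plantaris muscle with *RhoA* deleted in its fibres. With the block *Akap13* at -1 and *Pakap* at -0.71 also passed, both lower. Of 15 measured kinase, phosphodiesterase and channel partners of *Akap6* and *Akap9*, *Cacna1s*, the calcium channel of the muscle T-tubule, passed at -0.79 (median -0.10), and *Pde4b* did with the block, at -1.13. Without the block, the count of lower genes in that list was 0 to 4 with a replicate number or an array left out. It was 0 without replicate 2, and 0 when only genes at or above the median signal were tested. Of 14 measured genes for the minus and plus ends of microtubules, *Dst*, a giant linker of cytoskeletal filaments, passed at -1.31 (SE 0.53), and 5 passed lower with the block. The unblocked count of lower genes in this list was 0 to 3 with a replicate number or an array left out. It was 0 without replicate 1 and 0 without replicate 2. This list had the lowest median of the 10, at -0.25.

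**Figure D3:**
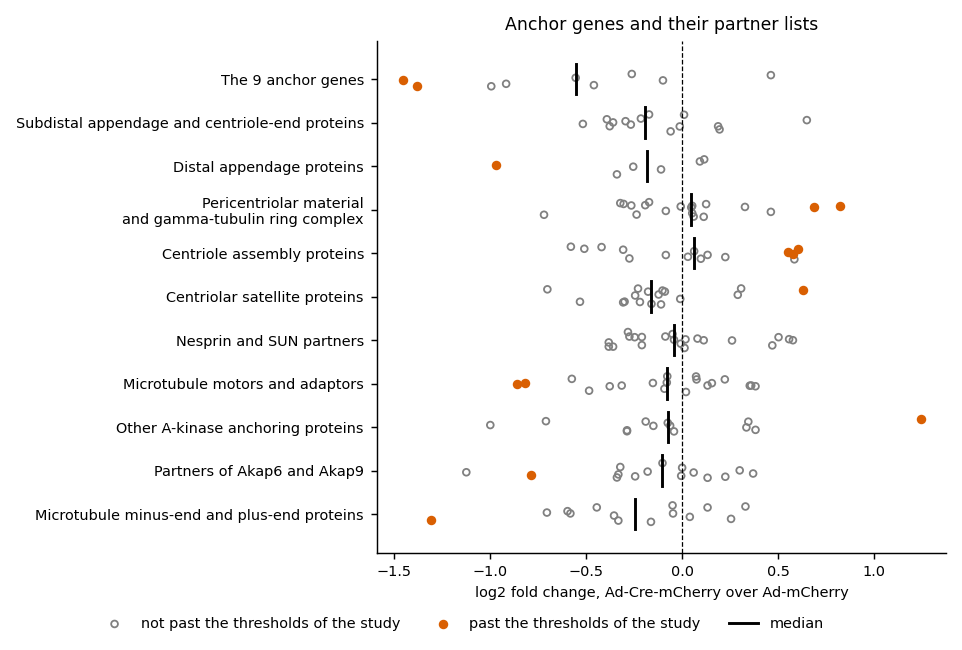
Log2 difference, Ad-Cre-mCherry minus Ad-mCherry, of each gene of the 10 partner lists and of the anchors, with the median of each list marked and genes past the thresholds of the study filled. The medians of the partner lists lie between -0.25 and 0.06, and that of the anchors is -0.56.

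Markers of skeletal muscle itself and of other cells were set beside these values. Of 14 skeletal muscle markers, *Myog* and *Myh3* passed the thresholds of the study lower, at -1.48 and -1.23, and the median was -0.34, where 6.42% of all genes passed in either direction. With the replicate block 6 passed lower and *Ckm* higher, at 0.62, where 14.7% of all genes passed. Of 11 measured markers of dividing cells, *Ccnb2* and *Ccna2* passed lower, at -0.79 and -0.66, and their summed linear signal was 196 to 340 in Ad-Cre-mCherry and 264 to 591 in Ad-mCherry. Their median was -0.49, with 0.12 in pair 1, and 5 passed lower with the block. None of 7 satellite cell and myoblast markers passed, with a median of -0.44, and 5 passed lower with the block, *Myf5* at -1.07 among them. None of 8 fibroblast, 6 macrophage, 6 endothelial and 5 adipocyte markers passed, with medians of -0.11, -0.01, 0.03 and 0.06. The fibroblast sums were 197 to 266 in Ad-Cre-mCherry and 199 to 345 in Ad-mCherry. The medians of the muscle, myoblast and dividing cell markers were below 0, as were *Cep170* and *Syne1*, though not every marker was lower, and their part in the differences was not tested.

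The anchors are long genes. Their median span in the genome was 94.6 kb, with 18.5 kb for *Sun2* as the shortest and 531 kb for *Syne1* as the longest, beside 17.8 kb over all genes. *Akap9*, *Akap6*, *Cdk5rap2* and *Syne1*, at 152, 457, 194 and 531 kb, belonged to the longest 10% of genes, and *Cep170* at 84.9 kb did not. In these 1951 genes, 68.9% were lower in Ad-Cre-mCherry with a median of -0.15, and in the 1049 of them with a mean signal at or above the median, 79.9% were lower with a median of -0.34. The other 17554 genes had 48% lower and a median of 0.02.

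The long, bright genes differed by pair in the order seen in the anchors, at -0.61, -0.36, -0.10 and -0.30 for pairs 1 to 4, beside -1.63, -0.41, -0.09 and -0.34. *Cep170* and *Syne1* lay below these medians in every pair. The longest genes were thus lower more often than the others. Among the anchors, *Syne1* at 531 kb differed by -1.46 and *Sun2* at 18.5 kb by 0.46. Against that order, *Cdk5rap2* at 194 kb differed by -0.10 and *Cep170* at 84.9 kb by -1.38. The part of gene span in the differences was not tested.

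**Figure D4:**
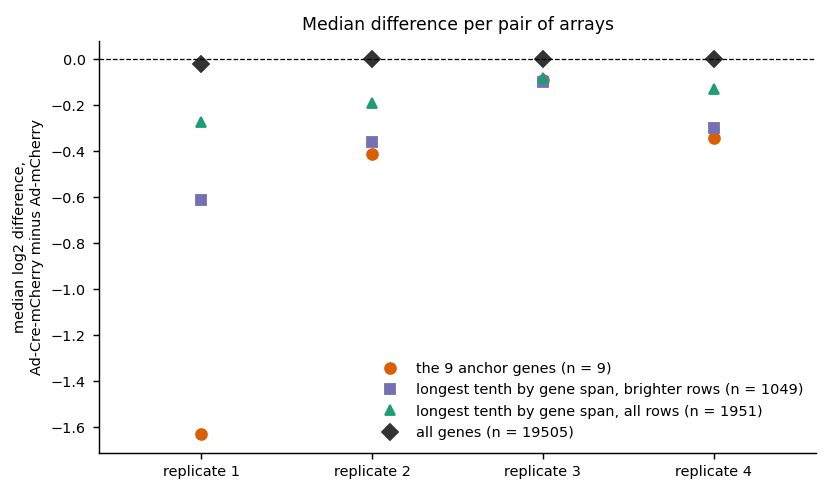
Median log2 difference, Ad-Cre-mCherry minus Ad-mCherry, within each replicate number for the anchors, for the longest 10% of genes, for those of them with bright signal and for all genes. The anchors run from -1.63 in pair 1 to -0.09 in pair 3, and the long genes with bright signal from -0.61 to -0.10.

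The genes whose pattern over the 8 arrays was most like that of *Cep170*, by the root mean square difference after each gene was centred on its own mean, were *Scel* (0.24), *Tsga10* (0.25) and *Tgfb3* (0.28), against a median of 0.91 over 19504 genes. Their differences between Ad-Cre-mCherry and Ad-mCherry were -1.38, -1.15 and -1.38. *Syne1* came nearest of the other anchors, at 0.58 and rank 437, and *Akap9* was next, at 0.81 and rank 4628. This likeness includes the contrast by which the anchors were chosen and is a description.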

How the data were processed

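Biotin-labelled cDNA amplified from total RNA was hybridised to Affymetrix arrays, 4 per group. The authors made the deposited log2 values with RMA in Affymetrix Expression Console, an algorithm of background correction, quantile normalization and probe summary (version not given in the sources used here). A mouse gene array is named in the methods, and the row names are those of another Affymetrix design. The table holds 22206 rows, of which 19572 have 1 symbol, 0 have several and 2634 have none here. Array medians were 4.78 to 4.87, single values 2.05 to 19.89, and arrays correlated at 0.962 to 0.992. The number of arrays limits the precision, and no detection calls were used, so how far dim rows lie above background is unknown.

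The brightest row of each symbol was tested in limma 3.58.1 (lmFit and eBayes, R 4.3.3), two-sided, Benjamini-Hochberg adjusted over 19505 genes with a threshold of 0.05, and the scripts were tested on simulated data. The members and lists were chosen with earlier results of these data known. Named are all members, *Rhoa*, up to 3 genes per list with the largest change that passed the study's thresholds without overlap, marker genes, and the 3 genes most like *Cep170*. In the partner lists only *Bicdl1* met this rule, and the other partner genes were named after their values were seen. Spans and promoters come from RefSeq on GRCm38.p6.

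Both groups carry replicate numbers 1 to 4. After group means were removed, the correlation of same-numbered arrays was 0.561, 0.516, 0.623 and 0.557, above the pairing minimum of 0.1, and that of other arrays -0.424 to 0.128. The pairing by number thus rests on the data alone. Tried as alternatives were quantile normalization again, the replicate block, centring on array medians, genes at or above the median signal, averaging a gene's rows, trended robust eBayes, array weights and each replicate or array left out. The block with each replicate number left out was added after the data were seen.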

Additional observations from a re-analysis of the deposited data

Results flagged for a closer look

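Ad-mCherry replicate 1 read 6.18 for *Sun2*, far from the other 3 Ad-mCherry arrays, of which the nearest was 5.46. The gap took 0.9 of the range of the group, above the critical value of Dixon's test for 4 arrays, in 1 of 20 groups examined, and chance gives about 1 such group in 20. No explanation was tested.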

How the results depend on the processing

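Genes past the thresholds of the study numbered 1252 (683 lower and 569 higher), and 2875 (1599 lower and 1276 higher) with the replicate block, the paired fit, which took the members past them to 5. Among genes at or above the median signal they were 720 (420 lower and 300 higher), where fewer genes were tested. With a replicate number or an array left out they were 694 to 1540 (397 to 838 lower and 275 to 702 higher), the low values without replicate 1 (775) and replicate 2 (694). Members past the thresholds were 2 to 5, with 4 without replicate 3 and 5 without Ad-Cre-mCherry replicate 3. In the added paired fits without a replicate number they were 4 to 6 (6 without replicate 3). The share of all genes was not computed for these added fits, so nothing is read from their counts. The median of the members was -0.86 to -0.20, with -0.24 without replicate 1 and -0.20 without Ad-Cre-mCherry replicate 1. Genes that differed between replicate numbers were 2349, and 1518 to 2062 with a number left out (1518 without replicate 3). *Cdk5rap2* turned direction without Ad-Cre-mCherry replicate 3 (0.0025) and without Ad-mCherry replicate 4 (0.144), within a range of -0.289 to 0.144. *Sun2* passed the thresholds also with quantile normalization again (0.51) and with array weights (0.50). With arrays left out it passed in 2 of 12 settings, without replicate 1 (0.65) and without Ad-mCherry replicate 1 alone (0.65), the array flagged above. Of 63 values of single members under other settings on all arrays, 58 kept their direction and side of the thresholds and 5 passed newly. Of 140 counts of partner list genes past the thresholds under those settings, 18 moved past a set margin. With a replicate number or an array left out, 55 of 240 such counts moved. The cause of these changes was not tested. With 4 arrays a group, a difference as small as that of *Cdk5rap2* could not be resolved.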
